A study of Rattus norvegicus with 174 samples.

Results

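Metallothioneins are small cysteine-rich proteins that bind zinc and copper and buffer the free metal in the cell. Zinc is released to the metal-sensing transcription factor encoded by Mtf1, which binds metal response elements in the promoters of metallothionein genes and of Slc30a1, the exporter that carries zinc out of the cell. Zinc enters the cytoplasm through importers such as Slc39a10 and Slc39a14. Slc39a14 also carries iron and manganese and is known for its induction in the liver during inflammation. Mt1 and Mt2A are made in most tissues and respond to metals, glucocorticoids and cytokines, whereas Mt3 is the metallothionein of the brain.

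These 7 genes were followed in rats that had inhaled phosphine, a fumigant gas, and each was read from the probe set that the platform annotation lists for it alone. Mtf1 and Slc39a14 have 2 such probe sets, of which the brighter on average was taken. The 7 genes are among 13438 genes measured on 174 Affymetrix rat arrays. Adult male Sprague-Dawley rats of 300 to 400 g breathed phosphine in a whole-body chamber at 660 ppm for 32.2 min, a product of 21252 ppm × min that the study gives as 0.91 of the median lethal product, or air. Brain, heart, kidney, liver, lung and blood were taken 1, 3, 6 or 24 h later from 19 phosphine rats and 14 air rats, each array holding RNA of 1 rat. Solid tissues had 4 phosphine and 4 air rats at 1, 3 and 24 h, and 4 against 2 at 6 h. Blood had 4 against 4 at 1 and 3 h and 5 against 1 at 6 h, and at 24 h only 2 phosphine samples, which entered no comparison. All values are log2 signals as deposited, and a gene is called where limma's adjusted p over all genes was under 0.05.

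The defining markers of each labelled organ stood high in its arrays. For example, the lowest mean of the 6 cardiomyocyte markers in any heart was 11.21, and their highest median in another tissue was 6.59. In 13 arrays, however, the mean of another organ's marker list exceeded its usual value in that tissue by 4 log2 or more (10 phosphine and 3 air arrays). Among these were the phosphine hearts Rat712 (1 h) and Rat729 (3 h) and the phosphine lung Rat716 (1 h), which held hepatocyte transcripts 4.23, 8.92 and 7.65 log2 above the tissue median. For the members, called results that rest on such arrays are given with and without them. The genes named from other lists are given with them only. In all of these bulk samples, fewer cells of a type and less RNA per cell cannot be told apart.

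The promoters of the metallothioneins are printed here because Mt2A and Mt1 changed and Mt3, from the same stretch of chromosome 19, was not called anywhere. They run from 250 bases before to 50 bases after the gene start, 5′ to 3′ on the minus strand of the RefSeq rat assembly GRCr8, at chr19:10838659-10838958 for Mt2A, chr19:10832926-10833225 for Mt1 and chr19:10856031-10856330 for Mt3. Capitals mark matches to the metal response element core, searched on both strands as TGCACNC and TGCGCNC.
Mt2A: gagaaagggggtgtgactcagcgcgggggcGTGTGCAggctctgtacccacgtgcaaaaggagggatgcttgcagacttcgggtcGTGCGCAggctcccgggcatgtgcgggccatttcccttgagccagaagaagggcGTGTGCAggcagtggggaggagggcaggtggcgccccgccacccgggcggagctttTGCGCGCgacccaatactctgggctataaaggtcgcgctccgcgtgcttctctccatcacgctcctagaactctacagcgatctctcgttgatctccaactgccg
Mt1: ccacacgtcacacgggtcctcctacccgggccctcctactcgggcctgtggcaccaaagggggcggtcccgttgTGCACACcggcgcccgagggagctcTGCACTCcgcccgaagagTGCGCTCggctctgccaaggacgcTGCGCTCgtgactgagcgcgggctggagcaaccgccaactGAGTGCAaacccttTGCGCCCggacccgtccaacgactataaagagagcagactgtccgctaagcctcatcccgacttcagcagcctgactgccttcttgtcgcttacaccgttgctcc
Mt3: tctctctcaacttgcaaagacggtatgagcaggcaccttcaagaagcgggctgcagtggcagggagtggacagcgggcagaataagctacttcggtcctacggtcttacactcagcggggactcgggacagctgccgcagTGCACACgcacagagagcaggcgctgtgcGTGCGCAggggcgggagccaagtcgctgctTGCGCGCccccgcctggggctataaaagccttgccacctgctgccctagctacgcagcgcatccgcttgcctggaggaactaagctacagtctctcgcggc
The Mt1 promoter held 6 matches to the core, Mt2A held 4 and Mt3 held 3, and no matches overlapped each other. Among 33469 rat promoters of the same length, 24.2% held at least 1 match, 1.68% at least 3, 0.439% at least 4 and 0.0388% at least 6. RefSeq promoters were found for 6 of the 7 genes. Mtf1 and Slc30a1 held 2 matches each and Slc39a10 held 0. The antioxidant response element core TGACNNNGC, present in 12.1% of promoters, matched the Mt1, Mt2A and Slc30a1 windows 1 time each and Mtf1 2 times, without overlapping a metal response core. Neither the palindromic glucocorticoid response element (0.439% of promoters) nor the STAT element TTCNNNGAA (8.87%) matched any of the 6 windows. A match is a stretch of letters and was not tested as a binding site. Sequence outside these windows was not searched, so the lack of a match says nothing of elements farther from the gene start.

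Mt2A was the member that moved most. It was higher after phosphine in 4 of 23 comparisons, in brain at 3 h, heart at 3 h and lung at 1 and 3 h, by between 2.54 and 7.24 times. Over all 161 pairs of a member and a comparison, 9 were called, 7 higher and 2 lower, or 4 for Mt2A, 2 each for Slc39a14 and Slc39a10 and 1 for Mt1. Over all genes and the same 23 comparisons, 1.92% of pairs were called (0.84% higher and 1.08% lower). By comparison, the share of all genes called was 0.149% in brain at 1 h and 0% at 6 and 24 h, 1.33%, 0.35% and 0.0819% in heart at 1, 6 and 24 h, and 3.12%, 0.35% and 0% in kidney at the same times. It was 0.335%, 0.223% and 0% in liver at 1, 6 and 24 h, 0.0967% and 0.00744% in lung at 6 and 24 h, and 0.00744% and 0.0521% in blood at 1 and 6 h. The other comparisons are those in which members were called, and their shares stand beside the calls. For Mt3, Mtf1 and Slc30a1, limma called 0 of 23 comparisons each, and 0, 4 and 3 of them had an unadjusted p under 0.05.

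**Figure D1:**
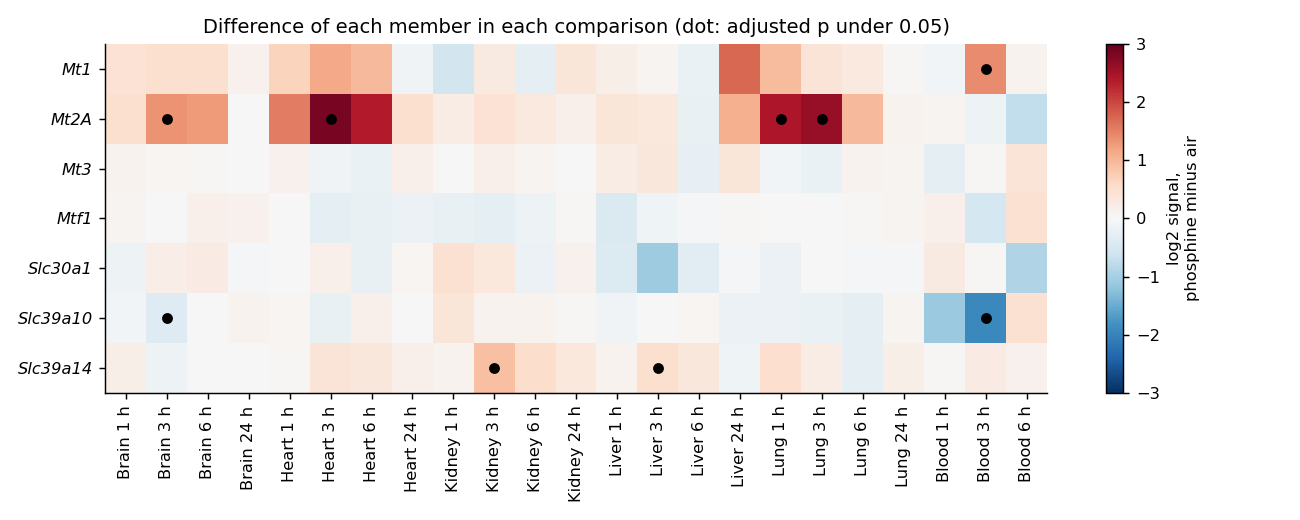
Log2 difference of phosphine minus air (colour) of each of the 7 genes (rows) in each of 23 comparisons of tissue and time (columns), where a dot marks an adjusted p under 0.05. The 4 dots of Mt2A lie in brain, heart and lung, and its difference is within 0.5 log2 of 0 in kidney at all times.

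Lung gave the earliest call. At 1 h the 4 air lungs had Mt2A signals of 6.44, 6.68, 6.35 and 6.44, and the 4 phosphine lungs had 7.84, 9.08, 9.21 and 9.50. Every phosphine lung lay above every air lung. The difference was 2.43 ± 0.35 (SE) log2, or 5.39-fold (adjusted p = 5.95e-05), where 5.8% of all genes were called and 2.18% were called higher. The 9.21 belongs to the lung with hepatocyte transcripts, and liver is rich in Mt2A. Without the arrays holding markers of another organ the difference was 2.33 ± 0.37 (adjusted p = 5.33e-04).

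At 3 h the lungs differed as widely. Air signals were 5.62, 6.49, 5.47 and 5.76, phosphine signals were 7.77, 8.24, 9.85 and 7.98, and the groups again did not overlap. Mt2A was 2.62 ± 0.35 log2 higher (6.16-fold, adjusted p = 1.73e-05), in a comparison where 11.6% of genes were called, 5.84% higher. Skeletal muscle transcripts stood out in the air lungs at 6.49 and 5.47 and in the phosphine lung at 8.24, and the difference was 2.84 ± 0.45 without them (adjusted p = 6.94e-04). By 6 h the phosphine lungs (6.81, 6.49, 7.25 and 7.35) were still above both air lungs (5.69 and 6.32), with a difference of 0.97 ± 0.42 that was not called (adjusted p = 0.505). At 24 h the groups overlapped, and the difference was 0.10 ± 0.35. Lung was the tissue in which limma's F test called a difference of the Mt2A effect between the 4 times (adjusted p = 0.00413, 6.38% of genes called, and 0.0137 without the arrays holding markers of another organ).

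**Figure D2:**
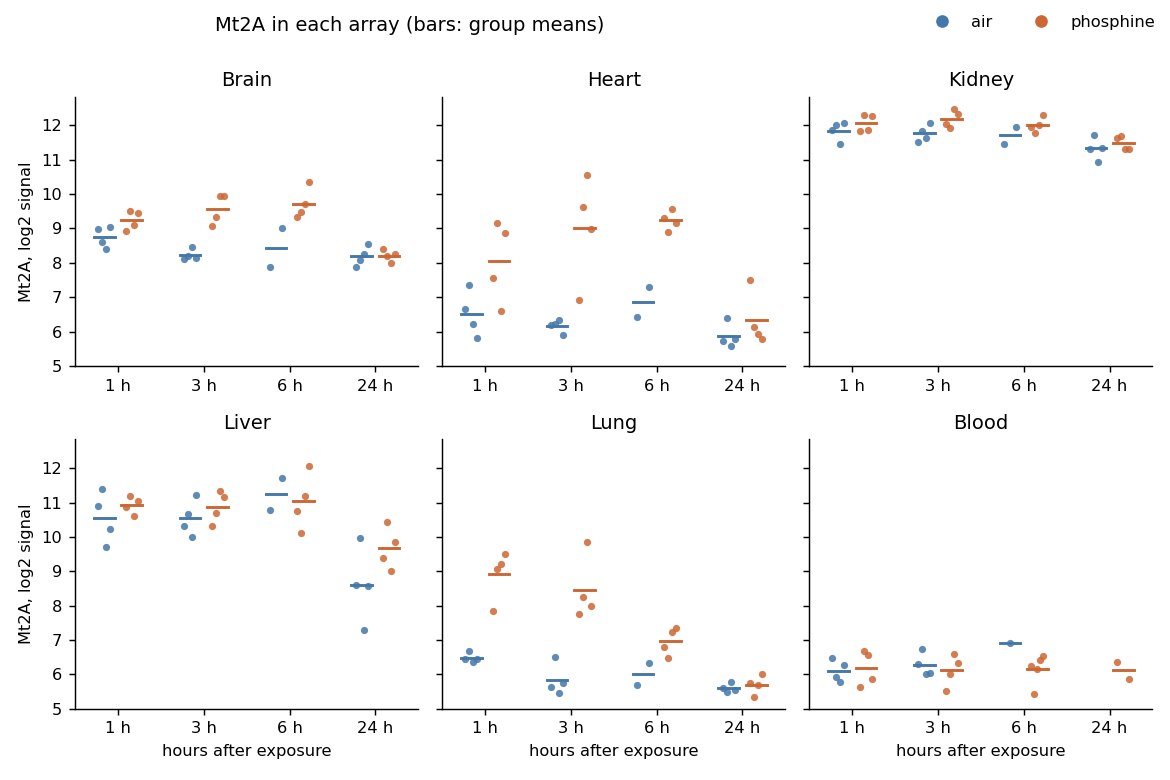
Mt2A log2 signal (y axis) of every array by hours after exposure (x axis) in 6 tissues, for air and phosphine rats, with bars at the group means. The groups separate in lung at 1, 3 and 6 h and in brain and heart at 3 and 6 h, and lie close in kidney, where all arrays are above 10.9.

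Heart showed the largest rise of any member, with a wide spread between the phosphine hearts. At 3 h the air hearts held 6.20, 6.21, 6.35 and 5.91 and the phosphine hearts 6.92, 9.62, 10.55 and 9.0. All phosphine hearts were above all air hearts, although the lowest phosphine heart lay close to the highest air heart and the other 3 lay far above it. Mt2A was 2.86 ± 0.56 log2 higher (7.24-fold, adjusted p = 0.0054), where 3.33% of genes were called, 1.06% higher. The heart at 9.62 is Rat729, with hepatocyte transcripts, and without such arrays the difference was 2.66 ± 0.58 (adjusted p = 0.0178). Fitted with those 8 hearts alone, it was not called (adjusted p = 0.176). At 1 h the phosphine hearts read 7.55, 9.16, 6.60 and 8.87 against 6.64, 7.35, 6.22 and 5.80 in air. The 9.16 is Rat712, also with hepatocyte transcripts. The groups overlapped, and the difference of 1.54 ± 0.56 was not called (adjusted p = 0.233). At 6 h all 4 phosphine hearts, from 8.91 to 9.56, lay above the air hearts at 6.43 and 7.29, and the difference of 2.38 ± 0.69 was not called (adjusted p = 0.158). It was called with array weights (2.41 ± 0.55, adjusted p = 0.0112) and against air hearts of all times (adjusted p = 1.21e-04). Both fits hold the phosphine heart of Rat760, with hepatocyte transcripts 4.57 log2 above the tissue median. Without the arrays holding markers of another organ the 6 h difference was not called. At 24 h it was 0.47 ± 0.56.

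Brain changed less but more evenly. The 3 h air brains held Mt2A at 8.10, 8.21, 8.47 and 8.13 and the phosphine brains at 9.08, 9.32, 9.94 and 9.94, with no overlap. The difference was 1.34 ± 0.23 log2 (2.54-fold, adjusted p = 0.00271), in a comparison where 0.506% of genes were called, 0.365% higher and 0.141% lower. The 3′ minus 5′ difference of control transcripts, a measure of RNA integrity, also differed there, at 0.27 to 0.43 in phosphine and 0.48 to 0.56 in air brains, and its part in the result was not tested. At 6 h the phosphine brains (9.33, 9.47, 9.71 and 10.35) were above the 2 air brains (7.86 and 9.02), with a difference of 1.28 ± 0.29 that was not called (adjusted p = 0.252). Without the air rat Rat763 it was 1.85 ± 0.33 (adjusted p = 0.0359), and against air brains of all times the adjusted p was 0.00128. The brain difference was 0.48 ± 0.23 at 1 h and 0.02 ± 0.23 at 24 h.

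In kidney and liver, Mt2A was not called at any time. Kidney differences ran from 0.16 to 0.43 log2, and the 95% interval at 3 h reached from 0.07 to 0.79. Against air kidneys of all times the 3 h difference was 0.54 ± 0.16 and called (adjusted p = 0.0196). That pool holds the 24 h air kidneys, at a mean of 11.33 beside 11.77 at 3 h. Liver differences were 0.37 ± 0.46, 0.32 ± 0.46 and -0.22 ± 0.56 at 1, 3 and 6 h. At 24 h the air livers spread from 7.28 to 9.98 and the phosphine livers from 9.0 to 10.44, and the difference of 1.06 ± 0.46 was not called (adjusted p = 0.672). Of the 4 air livers at 24 h, 3 also lay below all air livers at 1 h (9.71 to 11.39), and the F test between times in air rats gave an adjusted p of 0.051, where 0.246% of genes were called. Blood differences of Mt2A were 0.08 ± 0.31, -0.16 ± 0.31 and -0.75 ± 0.48, none called.

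The Mt2A effect differed between the 5 solid tissues at 1 h (adjusted p = 0.0188, 3.27% of genes called) and at 3 h (adjusted p = 1.6e-04, 14.4% of genes called). Without the arrays holding markers of another organ the adjusted p was 6.39e-04 at 3 h and 0.0694 at 1 h. At 1 h it was between 0.0662 and 0.147 without Rat712, Rat719, Rat720 or Rat727. The pairs of tissues were compared after the F tests were seen. At 1 h the effects in kidney and liver fell below that in lung by 2.20 ± 0.57 and by 2.06 ± 0.57 (adjusted p = 0.0378 and 0.0455, with 0.566% and 0.96% of genes called). At 3 h the heart effect exceeded that of kidney by 2.42 ± 0.57 and that of liver by 2.53 ± 0.57 (adjusted p = 0.00496 and 0.00122, with 2.63% and 7.81% of genes called). Kidney minus lung was -2.19 ± 0.57 and liver minus lung -2.30 ± 0.57 (adjusted p = 0.0173 and 0.00363, with 2.15% and 7.94% of genes called). Heart and lung differed by 0.23 ± 0.57, and brain was not separated from any of the other 4 (adjusted p from 0.161 to 0.711).

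**Figure D3:**
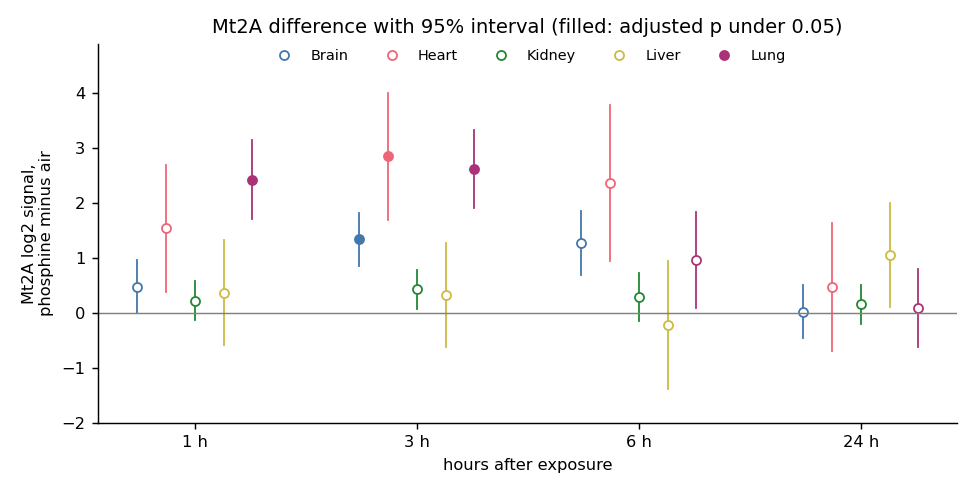
Mt2A log2 difference of phosphine minus air (y axis) with its 95% interval at 1, 3, 6 and 24 h (x axis) in the 5 solid tissues, filled where the adjusted p was under 0.05. Lung is filled at 1 and 3 h and heart and brain at 3 h only, and at 24 h all intervals except that of liver include 0.

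The air rats set the level from which these changes started. Averaged over 1 and 3 h, Mt2A in air rats was highest in kidney (11.80), then liver (10.55) and brain (8.49), each separated from the next by limma. Heart (6.33), blood (6.19) and lung (6.16) followed and were not separated from their neighbours in the order. The tissues with the 3 lowest levels thus include both tissues with the largest rises, but also blood, which had no Mt2A call. Kidney with the highest level had no call. The same air arrays enter the levels and the differences at 1 and 3 h, so the levels and rises are not independent. Phosphine lungs at their highest (9.85) stayed below every air kidney, the lowest of which was 10.93.

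The Mt1 signal followed another order and was read from a dim probe set at the 34th percentile of all genes. In air rats, Mt1 was highest in liver (7.52), then kidney (6.34), both separated from the next tissue. Heart (3.86), blood (3.85), lung (3.44) and brain (2.92) were not separated from their neighbours in the order. Signals of this probe set varied widely between rats. The 14 air kidneys ran from 4.50 to 7.93 and the 14 air livers from 4.68 to 9.16. Around the group means of air rats, its r with Mt2A was -0.21 in kidney and from 0.07 to 0.86 in the other tissues. In kidney its r with a probe set listed for both Mt1 and Ttr was -0.09. That probe set was higher in kidney (11.81) than in liver (11.38) over air rats of all times, as Mt2A was. Mt3 was at 12.07 in brain and between 3.58 and 5.27 elsewhere. Mtf1, the sensor, lay between 7.39 and 8.05 in the 6 tissues, and no neighbours in its order were separated. Slc30a1 was highest in liver (6.73) and lowest in blood (3.64). Slc39a10 was highest in brain (9.23) and lowest in liver (5.39), while Slc39a14 was highest in liver (9.24), followed by heart (7.83). In all, limma separated 19 neighbouring pairs of tissues over the 7 genes, or 2 for Mt1, 3 for Mt2A, 4 for Mt3, 0 for Mtf1, 4 for Slc30a1, 3 for Slc39a10 and 3 for Slc39a14, and 47.4% of such pairs over all genes.

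**Figure D4:**
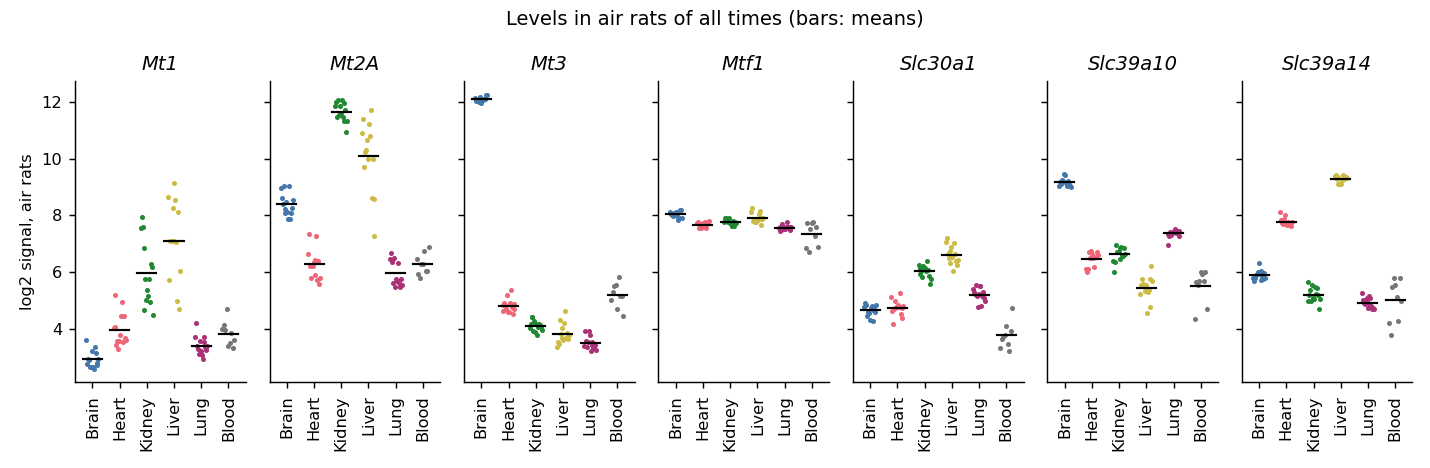
Log2 signal (y axis) of each air rat of all times in each tissue (x axis), with a panel per gene and bars at the means. Tissues can be compared within a panel, whereas panels hold different probe sets whose levels cannot be set against each other. Mt3 stands apart in brain, and Mt1 and Mt2A spread over several log2 units in liver.

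Mt1 was called only in blood at 3 h, where 6.6% of all genes were called, 0.804% higher and 5.8% lower. Its signals were 3.40, 3.49, 3.84 and 3.32 in air and 5.23, 5.43, 4.22 and 4.80 in phosphine rats, with no overlap. The difference was 1.41 ± 0.32 log2 (2.65-fold, adjusted p = 0.0146), and without Rat729, the highest, the adjusted p was 0.0602. All 8 values lay below the median gene level of 5.78, and Mt2A differed by -0.16 in the same samples. In heart at 3 h Mt1 was 1.13 ± 0.41 higher (adjusted p = 0.134) and in lung at 1 h 0.95 ± 0.34 higher (adjusted p = 0.113), and neither was called. In liver at 24 h it differed by 1.73 ± 0.70 (adjusted p = 0.649), with air livers between 4.68 and 8.12 and phosphine livers between 6.81 and 8.54. A probe set listed for both Mt1 and Ttr was called higher in brain at 3 h (by 1.30 log2, adjusted p = 0.00211). In lung at 1 h it was called 1.49 higher (adjusted p = 0.00109), and its values are given further below. Which gene it reads, and whether a rise in Mt1 was missed for lack of signal, was not tested.

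Mt3 was not called in any comparison, and its differences were small. In all brains its signal lay between 11.87 and 12.36, and its differences at 1, 3 and 6 h were 0.10 ± 0.08, 0.06 ± 0.08 and 0.03 ± 0.10 log2, in the same brains in which Mt2A rose. At 3 h the 95% interval for Mt3 in brain ran from -0.11 to 0.23 log2. Over all 20 comparisons of solid tissues its median absolute difference was 0.11, against 0.48 for Mt2A.

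Mtf1 was not called in any comparison. Its largest difference in a solid tissue was in liver at 1 h, with phosphine livers at 7.69, 7.47, 7.55 and 7.53 below air livers at 8.11, 8.24, 7.79 and 7.79. The difference of -0.42 ± 0.10 had an adjusted p of 0.0726, and 0.335% of genes were called there. It was called with array weights (adjusted p = 0.0304), with genes under the 40th percentile left out (0.0379), against air livers of all times (0.0304) and without Rat726 or Rat727 (0.0440 and 0.0378). The other alternatives did not call it. In these livers the 3′ minus 5′ difference of control transcripts was 0.46 to 0.51 after phosphine and 0.53 to 0.71 in air, and its part was not tested. In kidney at 3 h Mtf1 differed by -0.27 ± 0.09 (adjusted p = 0.0597), and in heart at 3 h by -0.30 ± 0.09 (adjusted p = 0.0846). The kidney difference was called with that filter (adjusted p = 0.0385), against air kidneys of all times (0.0175) and without Rat719, Rat731 or Rat742 (from 0.0331 to 0.0476). The heart difference was called against air hearts of all times (0.00478). Each was uncalled under the alternatives not named for it. The Mtf1 effect differed between tissues at 1 h (adjusted p = 0.0097, with 3.27% of genes called). Without the arrays holding markers of another organ the adjusted p was 0.0127. Liver lay below brain by 0.50 ± 0.12, below heart by 0.42 ± 0.12 and below lung by 0.43 ± 0.12 (adjusted p = 0.0177, 0.0414 and 0.0437, with 0.424%, 1.5% and 0.96% of genes called). The F test call between tissues was lost without Rat719 or Rat721 (adjusted p = 0.104 and 0.135). The other, dimmer probe set of Mtf1 disagreed. It gave an adjusted p of 0.631 between tissues. In kidney at 1 h it was 0.54 ± 0.13 higher (adjusted p = 0.0167), where the brighter one differed by -0.23 ± 0.09. In liver at 1 h, kidney at 3 h and heart at 3 h the dimmer one differed by 0.17 ± 0.23, 0.18 ± 0.13 and -0.002 ± 0.15, none called.

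Slc30a1, the zinc exporter that metal is known to induce, was not called in any comparison. Liver at 3 h held 5.89, 6.16, 4.51 and 5.60 after phosphine and 6.73, 6.31, 6.87 and 6.52 in air. All phosphine livers were lower, and the difference of -1.07 ± 0.31 had an adjusted p of 0.0517, which fell under 0.05 with several alternatives. Kidneys at 1 h went the other way, from 6.29 to 6.73 after phosphine and 5.92 to 6.24 in air, a difference of 0.46 ± 0.15 that was not called (adjusted p = 0.0977). Against air kidneys of all times Slc30a1 was called higher at 1 h (0.51 ± 0.13, adjusted p = 0.0151) and at 3 h (0.39 ± 0.13, adjusted p = 0.0412). In lung, where Mt2A rose most clearly, Slc30a1 differed by -0.17 ± 0.17 and 0.02 ± 0.17 at 1 and 3 h. The effect at 3 h differed between tissues (adjusted p = 8.96e-04, with 14.4% of genes called). Liver lay below brain by 1.27, heart by 1.21, kidney by 1.40 and lung by 1.09 (SE 0.30 each, adjusted p from 0.00106 to 0.00971). Among all genes, 3.87%, 7.81%, 3.48% and 7.94% were called for these pairs of tissues. The lowest liver, at 4.51, is Rat730, which held skeletal muscle transcripts 4.53 log2 above the median, and without that rat the adjusted p between tissues was 0.0833. Without all arrays holding markers of another organ it was 0.0338.

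Slc39a14, the importer that also carries iron, rose in kidney and liver at 3 h. In kidney the air signals were 4.96, 5.55, 5.09 and 5.04 and the phosphine signals 5.67, 6.16, 6.32 and 6.09. The groups did not overlap, and the difference was 0.90 ± 0.17 log2 (1.86-fold, adjusted p = 0.00191), where 6.39% of genes were called, 2.86% higher. At 6 h kidneys still lay apart, at 5.69 to 6.17 against 5.22 and 5.46, with a difference of 0.54 ± 0.21 (adjusted p = 0.366). The 3′ minus 5′ difference of control transcripts was also apart there, at 0.68 to 0.75 after phosphine and 0.59 to 0.60 in air. Its part was not tested. The other probe set of Slc39a14 was also called higher in kidney at 3 h, by 0.45 ± 0.10 (adjusted p = 0.00532).

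In liver at 3 h the 4 air rats held 9.11, 9.12, 9.12 and 9.09 and the phosphine rats 9.55, 9.50, 9.82 and 9.50. The air livers were almost identical, and all phosphine livers were higher, by 0.48 ± 0.09 log2 (1.40-fold, adjusted p = 0.0013, with 3.85% of genes called and 1.99% called higher). Without Rat730, the liver at 9.82 with skeletal muscle transcripts, the rise was 0.41 ± 0.08 (adjusted p = 0.00398). The other probe set gave 0.76 ± 0.23 (adjusted p = 0.0619), and a fit of the 3 h livers alone gave an adjusted p of 0.0539. At 6 h the difference was 0.33 ± 0.11 (adjusted p = 0.252), and at 24 h it was -0.12 ± 0.09. Across tissues at 3 h the Slc39a14 effect differed (adjusted p = 0.00295), where 14.4% of genes were called. Without the arrays holding markers of another organ the adjusted p was 6.79e-05, but the other probe set did not give that call (adjusted p = 0.150). Of 10 pairs of tissues only kidney against brain was separated, with brain minus kidney at -1.06 ± 0.22 (adjusted p = 0.00246, 0.766% of genes called). In heart at 3 h the phosphine values were 7.94, 8.72, 8.05 and 8.06 and the air values 7.87, 8.03, 7.69 and 7.67. The 8.72 is the heart with hepatocyte transcripts, and the difference of 0.38 ± 0.14 was not called (adjusted p = 0.133). In lung at 1 h the phosphine values were 5.08, 5.02, 6.60 and 5.36 and the air values 5.28, 5.0, 4.89 and 4.87. The single high lung, at 6.60, is Rat716 with its hepatocyte transcripts, and the difference of 0.51 ± 0.21 was not called (adjusted p = 0.189).

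Slc39a10, a zinc importer of the plasma membrane, fell in brain and in blood at 3 h. Brain values were 9.26, 9.20, 9.45 and 9.41 in air and 8.97, 8.90, 8.95 and 8.94 after phosphine, with no overlap. The fall was small, -0.39 ± 0.07 log2 (adjusted p = 0.00802), and the adjusted p was 0.0509 without the air rat Rat738, 0.185 against air brains of all times and 0.112 with the 3 h brains alone. These are the brains whose 3′ minus 5′ difference did not overlap between groups. At 1, 6 and 24 h the brain differences were -0.08, -0.02 and 0.10. In lung at 6 h it differed by -0.30 ± 0.12 (adjusted p = 0.422) and in kidney at 1 h by 0.36 ± 0.13 (adjusted p = 0.136), neither called. Without the air rat Rat727 the kidney difference was 0.54 ± 0.11 and called (adjusted p = 0.00392).

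In blood at 3 h Slc39a10 was at 5.99, 5.94, 5.69 and 6.02 in air and at 4.03, 3.90, 3.62 and 4.36 after phosphine. It fell by 1.93 ± 0.37 on the log2 scale (adjusted p = 0.00733), the largest fall of any member. At 1 h the phosphine values of 4.16, 3.39, 4.41 and 4.85 lay below 3 of the 4 air values (4.33, 5.65, 5.54 and 5.70), with a difference of -1.10 ± 0.37 that was not called (adjusted p = 0.417). At 6 h, with 1 air rat at 4.68, the 5 phosphine rats spread from 4.58 to 6.14. Markers of B and T lymphocytes were also lower in that blood. The mean signal of the 5 markers was 7.93 to 8.77 in phosphine and 8.96 to 9.58 in air blood at 3 h, all 5 differences were below 0, and Cd79b and Ms4a1, both B cell genes, were called lower (differences of -1.52 ± 0.34 and -1.73 ± 0.39, adjusted p = 0.0146 and 0.0145). Of the 6 neutrophil, 6 macrophage and 4 erythroid markers none was called, with median differences of 0.47, 0.10 and 0.09. The part of lymphocyte numbers in the fall of Slc39a10, or in the Mt1 result from the same blood, was not tested.

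**Figure D5:**
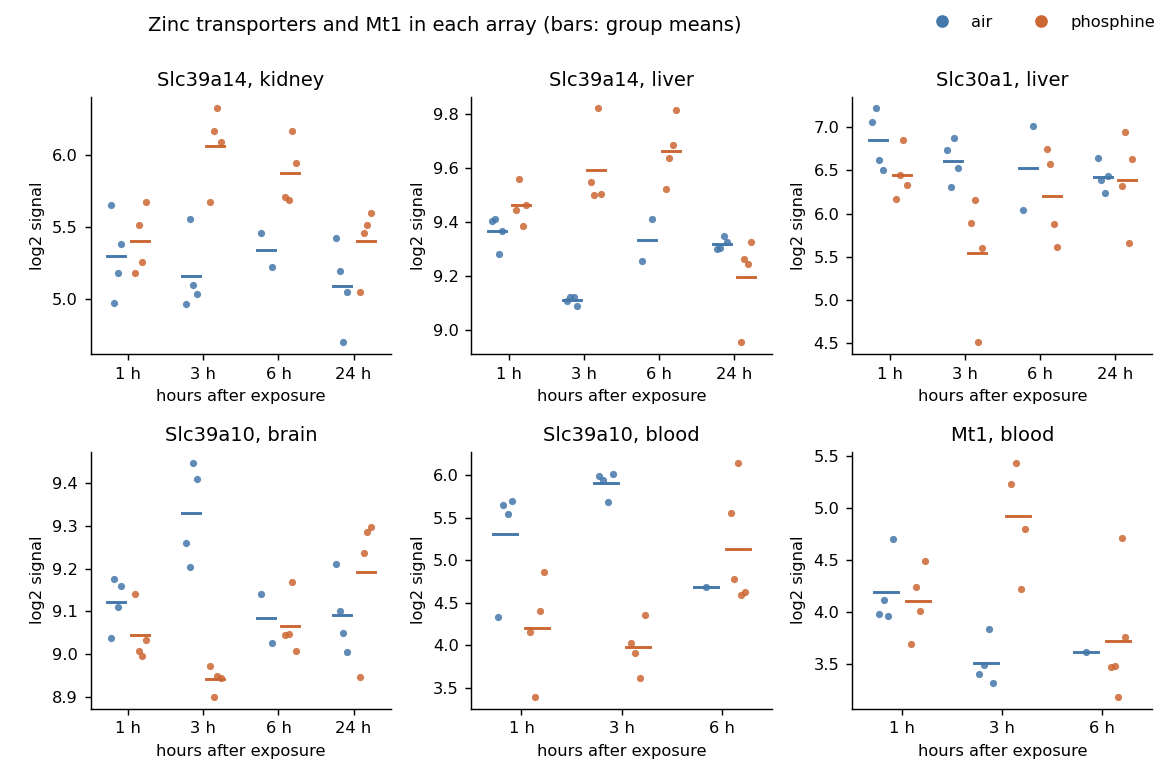
Log2 signal (y axis, a separate scale in each panel) of every array that entered a comparison by hours after exposure (x axis) for Slc39a14 in kidney and liver, Slc30a1 in liver, Slc39a10 in brain and blood and Mt1 in blood, with bars at group means. In each panel the air and phosphine rats do not overlap at 3 h. The panels were picked for differences at that time, all called except Slc30a1 in liver, so this separation follows from the choice.

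Few pairs of the other zinc transporters were called. Of 21 listed, 16 were measured, and over their 368 pairs with a comparison 2 were called higher and 1 lower. Over all genes 1.92% of pairs were called. Both rises were of Slc30a3, which loads zinc into synaptic vesicles in the brain, but here in lung. At 1 h its lung signals were 5.08, 4.44, 4.85 and 5.11 in air and 6.40, 6.46, 5.88 and 6.07 after phosphine, a rise of 1.34 ± 0.19 log2 (adjusted p = 6.81e-05). At 3 h the rise was 1.44 ± 0.19 (adjusted p = 2.08e-05). At 6 h it was 0.98 ± 0.24 and not called (adjusted p = 0.101), so that Slc30a3 and Mt2A were called in lung at the same times. The fall was of Slc39a1, another zinc importer, in blood at 3 h. These are again the samples with lower lymphocyte markers. Slc39a1 read 6.87, 7.19, 6.85 and 7.20 in air and 5.86, 6.43, 6.07 and 5.54 after phosphine, and fell by 1.05 ± 0.27 (adjusted p = 0.0256). Of 13 copper handling genes 12 were measured, and 1 of their 276 pairs was called, beside that same 1.92%. It was Cp, the plasma copper oxidase ceruloplasmin, 1.69 ± 0.47 higher in blood at 3 h (adjusted p = 0.0342).

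Genes known to respond to glucocorticoids, which also induce metallothioneins, were called in more pairs. Of 12 listed, 11 were measured, and 45 of their 253 pairs were higher and 1 lower. Over all genes, 0.84% of pairs were called higher and 1.08% lower. This list and those below were chosen with earlier results of these data known, so their counts are a description. In brain at 3 h 6 of the 11 rose, in heart at 3 h 3, in lung at 1 h 4 and in lung at 3 h 6. Kidney had 7 of 11 higher at 1 h (2.12% of all genes were) and 5 at 3 h, times at which Mt2A was not called there. The genes named from these lists were picked after their values were seen. Fkbp5, which encodes a chaperone partner of that hormone's receptor, was 1.13 ± 0.15 log2 higher in brain, 2.0 ± 0.23 in heart, 2.20 ± 0.24 in kidney, 1.96 ± 0.19 in liver and 2.83 ± 0.37 in lung at 3 h (adjusted p from 1.32e-06 to 1.36e-04). It was thus called in all 5 solid tissues. Mt2A was called in 3 of them at that time, and the effects of Fkbp5 and Mt2A were not compared by a test. Sgk1, an ion transport kinase, rose at 3 h in brain, heart and kidney by 1.41 ± 0.27, 1.22 ± 0.31 and 1.14 ± 0.27 (adjusted p = 0.00883, 0.0282 and 0.00831). Median differences of the list were 0.86 log2 in brain at 3 h, 0.83 in heart at 3 h and 0.93 in lung at 3 h, beside medians over all genes between -0.02 and 0.01. Of 13 measured genes responsive to cytokines and STAT3, 11 of 299 pairs were higher and 1 lower. Lung at 3 h held 5 of the rises, where 5.84% of all genes were called higher. There Lcn2, an iron-siderophore binding protein, and Il6r, the interleukin 6 receptor, were 1.01 ± 0.33 and 0.82 ± 0.18 higher (adjusted p = 0.0454 and 0.00319). Il6r also rose in liver at 3 h, by 1.29 ± 0.21 (adjusted p = 5.41e-04), beside the rise of Slc39a14 there. Of 11 measured targets of the oxidant sensor NRF2, 11 of 253 pairs were higher and 4 lower. Kidney at 3 h held 4 of the rises, where 2.86% of all genes were called higher. The largest there was Hmox1, heme oxygenase, at 2.05 ± 0.35 log2 (adjusted p = 5.94e-04). In lung at 1 h, where Mt2A was 5.39-fold higher, Hmox1 fell by 0.68 ± 0.18 (adjusted p = 0.0235). The part of glucocorticoids, cytokines or oxidants in the results of Mt2A, Slc39a14 or any other member was not tested.

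Across the 23 comparisons, the differences of Ninj1, Tent5a, Glul, Pdk4 and Fam107a were the most like those of Mt2A among 6718 genes above the median level, with Pearson r of 0.80, 0.78, 0.76, 0.74 and 0.72. Pdk4 encodes a kinase that shuts down pyruvate oxidation, and is also on the glucocorticoid list, and Glul encodes glutamine synthetase. Without heart and lung at 3 h, the comparisons farthest from the median of Mt2A, r was 0.73, 0.74, 0.81, 0.70 and 0.51. Mt1 had an r of 0.51 with Mt2A, and of 0.67 in the 20 comparisons of solid tissues, whereas Mt3 had -0.35. For Mt1 the closest genes were Dpcd, Fgfr1, Scx, Igfbp2 and Ckb, with r of 0.66, 0.61, 0.61, 0.60 and 0.59, and these fell to between 0.18 and 0.41 without liver at 24 h and blood at 3 h. Without the same pair of comparisons the r of Mt1 with Mt2A was 0.80. The 5 genes were picked by r with that pair included, and Mt2A was not picked by r. Their r values without the pair therefore cannot be ranked against that of Mt2A. Tissues of a time share rats, so these r values are a description.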

How the data were processed

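RMA and Partek produced the deposited log2 values, 1 per probe set and array, per the submitters' processing notes. Versions and whether tissues were normalized together are not given in the sources used here. The 31139 probe sets span 1.74 to 14.13 log2. The number of arrays, not a depth, limits the precision. Per the labels, each array is 1 rat. Probe sets listing 1 gene (19063) gave 13438 genes, with the probe set of highest mean for each.

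For every tissue, limma 3.58.1 under R 4.3.3 (with data.table at 1.17.8) estimated a mean for each exposure at each time, with the spread shared over the tissue's groups. P-values were adjusted over all genes (Benjamini-Hochberg). Effects were compared between times and between the 5 solid tissues by moderated F, and air levels between neighbouring tissues at 1 and 3 h. The rat number pairs tissues, and its consensus correlation was 0.0268 and 0.0158, and that block changed no count of calls. No batch is labelled. The members and gene lists were chosen with earlier results of these data known. All 7 members were named, and the 5 genes most like Mt1 and Mt2A. On simulated data with 200 genes changed 2-fold, the method recovered 65.5% (liver 6 h) to 97% (brain 1 h) in solid tissues and 5.5%, 5% and 0% in blood at 1, 3 and 6 h. Some real comparisons called more genes (887 in blood and 1559 in lung at 3 h), so the simulated shares do not give the power there. Alternatives were other normalizations, filters, probe sets, variance models, controls and left-out arrays. Promoters are RefSeq's (GRCr8), and figures used python 3.11.15 and matplotlib 3.10.9.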

Additional observations from a re-analysis of the deposited data

Results flagged for a closer look

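In groups of 4 or 5 arrays, 14 of 280 combinations of a member and a group (5%) held an array whose gap to its nearest neighbour, over the range of the group, passed Dixon's 95% critical value. By its construction that rule flags about 1 in 20 groups by chance. Mt1 was low in the 1 h air kidney of Rat727 (4.68, others from 7.56 to 7.93). It was high in the 3 h phosphine kidney of Rat731 (7.32), the 3 h air brain of Rat738 (3.23) and the 24 h air heart of Rat745 (4.44). Mt3 was high in the 1 h air liver of Rat727 (4.29), the 3 h air heart of Rat733 (5.20) and the 24 h phosphine brain of Rat749 (12.24). Mtf1 was low in the 24 h air liver of Rat744 (7.66). Slc39a10 was low in the 1 h air blood of Rat720 (4.33), the 3 h air kidney of Rat739 (6.46) and the 24 h phosphine brain of Rat741 (8.95), and high in the 1 h air heart of Rat727 (6.69). Slc39a14 was high in the 3 h phosphine heart of Rat729 (8.72) and the 3 h phosphine liver of Rat730 (9.82), arrays that also held transcripts of another organ.

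By limma's F tests, the effect of phosphine differed between groups in 6 instances. For Mt2A it differed between times in lung (adjusted p = 0.00413) and between tissues at 1 h (0.0188) and 3 h (1.6e-04). Between tissues it also differed for Mtf1 at 1 h (adjusted p = 0.0097), and for Slc30a1 (8.96e-04) and Slc39a14 (0.00295) at 3 h. Of all genes, 6.38% were called between times in lung. Between tissues, 3.27% of all genes were called at 1 h and 14.4% at 3 h.

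A probe set that the platform lists for both Mt1 and Ttr entered no comparison of a member. After phosphine it was 1.30 log2 higher in brain at 3 h (adjusted p = 0.00211) and 1.49 higher in lung at 1 h (adjusted p = 0.00109). Across the 23 comparisons its differences had an r of 0.70 with Mt2A, 0.57 with the Mt1 probe set and 0.33 with Ttr. In air rats its mean was 7.10 in brain, 11.81 in kidney and 11.38 in liver, where Ttr was at 12.70, 5.68 and 13.23. Around the group means of air rats, its r with Mt2A ran from 0.30 in blood to 0.97 in liver. Its r with Ttr ran from -0.32 in liver to 0.49 in lung. Which gene it reads was not tested.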

How the results depend on the processing

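No called result reversed under any alternative. The 9 called pairs rose to 28 with air rats of all times pooled (8 of the 9 among them), and Mt2A to 9 and Mt1 to 3 comparisons. The share of all genes called against that control is not given here, so the rise cannot be read as particular to the members. A pooled control mixes the hours after exposure with the exposure, so its calls cannot tell these apart. In heart, mean air Mt2A was 6.86 at 6 h and 5.87 at 24 h. Mt1 fell to 0 when genes under the 40th percentile were left out. Differences between times rose from 1 to 2 with that filter, with eBayes trend and robust fitting and with array weights, each time by Slc39a14 in liver. Differences between times in air rats rose from 0 to 1, Mt2A in liver, with median centring, the filter and array weights. Leaving out each rat gave 8 to 12 pairs, 4 to 5 for Mt2A, 0 to 2 for Mt1, 1 to 2 differences between times, 3 to 5 between tissues, 0 to 2 in air rats and 19 to 20 neighbouring pairs of tissues. Mt1 had 0 calls without Rat729 and 2 without Rat710 (lung 1 h) or Rat728 (heart 3 h). Differences between tissues fell from 5 to 3 without Rat719. Air rats gave 2 differences, Mt1 and Slc39a10 in kidney, without Rat727. With only the 2 groups in the fit, Mt2A in heart, Slc39a10 in brain and Slc39a14 in liver at 3 h were lost (adjusted p = 0.176, 0.112 and 0.0539). Between tissues, the mean of probe sets (adjusted p = 0.519) ended the Mtf1 call at 1 h, and the other probe set ended that of Slc39a14 at 3 h (0.15). Slc30a1 in liver at 3 h was called with quantile normalization (adjusted p = 0.025), the filter (0.0324), trend and robust fitting (0.04) and pooled air (0.00543), and some gains of Mtf1, Mt2A, Slc30a1 and Slc39a10 are given beside their results. With the rat as a replicate block, 5 differences between tissues and 19 neighbouring pairs of tissues were called, as without it, and no other paired analysis applied, since phosphine and air rats are different animals. The causes of these changes were not tested. Blood, with wide spread and 1 air sample at 6 h, and the dim Mt1 probe set limit what could be seen.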

Other observations

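Blood at 24 h came from 2 phosphine rats, Rat741 and Rat742, with no air blood at that time. Mt1 was at 3.58 and 3.24, Mt2A at 6.37 and 5.87 and Mt3 at 4.87 and 4.98. Mtf1 read 6.90 and 6.89, and Slc30a1 3.28 and 4.24. For Slc39a10 the signals were 4.89 and 4.41, between those of phosphine and air blood at 3 h. Slc39a14 was at 6.16 and 4.22.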
